A study of Homo sapiens with 6 samples.

Results

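The 9 genes described here are the markers by which neuroendocrine differentiation is usually recognised in tissue and cell lines: the granins CHGA, CHGB, SCG2 and SCG3, the granule protein SCG5, the vesicle protein SYP, the adhesion molecule NCAM1, the neuronal enolase ENO2 and the transcription factor INSM1. They were taken by symbol from array features paired with exactly 1 gene, and all 9 were found, each with 1 feature, among 16704 genes tested. The study used LNCaP, an androgen-responsive human prostate cancer line, and asked which genes change when MBD2, which recognises methylated CpG sites and brings the NuRD repressor to them, is reduced. It compared 3 LNCaP clones carrying a short hairpin RNA against MBD2 with 3 clones carrying a scrambled hairpin, 1 Affymetrix Gene ST array of cytoplasmic RNA per clone. Both hairpins were delivered in the siLentGene-2 vector and both kinds of clone were selected for neomycin resistance, so the controls shared the vector and the selection. Each clone descends from its own stable transfectant, so differences between clones that are unrelated to the hairpin are part of the spread measured here.

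Neuroendocrine cells are a scattered, hormone-secreting population of the normal prostate epithelium, and prostate cancers that escape hormone therapy sometimes take on their features. The granins are acidic proteins that condense in the trans-Golgi network, help dense-core secretory granules to form and are cut into peptides there. INSM1 is a zinc finger repressor that drives endocrine and neuroendocrine differentiation, while outside the nervous system many neuronal and granule genes are held silent by REST, which binds a DNA element called RE1 and recruits CoREST and histone deacetylases. LNCaP cells are known to acquire neuroendocrine traits after androgen withdrawal or a rise in cyclic AMP.

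The promoters of these genes differ in the feature that MBD2 reads when it is methylated, the CpG dinucleotide. RefSeq promoter windows of 300 bases (GRCh38.p14, 250 before and 50 after the start site) were matched for 5 of the 9 genes: CHGA, ENO2, SCG3, SCG5 and SYP. ENO2 had 38 CpGs in its window and SYP 35, more than in 90.1% and 85.9% of 35116 promoters. CHGA had 24, SCG3 18 and SCG5 11, against a median of 14 over all promoters. The most and the least CpG-rich of the 5 are shown, as the 250 bases before the start with each CpG in capitals, and CHGA with the core of its cyclic AMP response element (TGACGT, read on both strands) in capitals. ENO2 lies at chr12:6914330-6914579, SCG5 at chr15:32641460-32641709 and CHGA at chr14:92922900-92923149, all on the plus strand. Methylation was not measured on these arrays.
ENO2: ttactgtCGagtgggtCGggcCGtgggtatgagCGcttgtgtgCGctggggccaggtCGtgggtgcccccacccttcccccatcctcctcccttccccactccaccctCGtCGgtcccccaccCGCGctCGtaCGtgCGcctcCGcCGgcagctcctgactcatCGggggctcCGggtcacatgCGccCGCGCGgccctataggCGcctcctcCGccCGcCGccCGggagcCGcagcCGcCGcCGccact
SCG5: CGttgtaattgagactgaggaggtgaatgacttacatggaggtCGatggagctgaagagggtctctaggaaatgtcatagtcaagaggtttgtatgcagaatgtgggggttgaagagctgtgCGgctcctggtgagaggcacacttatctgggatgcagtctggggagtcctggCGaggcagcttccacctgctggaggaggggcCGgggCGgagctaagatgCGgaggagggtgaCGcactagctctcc
CHGA: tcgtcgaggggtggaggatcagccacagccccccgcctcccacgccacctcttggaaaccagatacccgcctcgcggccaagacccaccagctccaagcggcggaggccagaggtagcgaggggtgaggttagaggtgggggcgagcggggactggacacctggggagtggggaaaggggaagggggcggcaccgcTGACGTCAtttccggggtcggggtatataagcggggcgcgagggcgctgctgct

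The capitals in CHGA are 2 overlapping matches of TGACGT, 1 on each strand, which begin 54 bases before the start site. This core was in 7.98% of all promoters and in 1 of the 5 shown here. SCG3 carried the 2 blocks of an RE1, CAGCACC and GGACAGC, on the same strand just after its start site (chr15:51681511-51681536, plus strand), which are capitalised below. Both blocks in this order within 30 bases were found in 0.108% of promoters, and in no other of the 5 windows. Taken singly and on either strand, CAGCACC was in 7.75% of promoters and GGACAGC in 6.03%. The GC box GGGCGG was in all 5 windows and in 45.0% of all promoters, and the copy in SCG3 overlaps the second RE1 block. The E-box CAGCTG was in SCG3 alone of the 5 and in 17.9% of promoters, and CAGATG was in none of the 5 and in 14.7%. These are matches of letters and no measure of binding.
SCG3: ttCAGCACCcacagggcGGACAGCgc

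MBD2 itself was lower in every knockdown clone than in any control, at 41.2% of the control level (log2 difference -1.28, SE 0.14, limma adjusted p = 0.111). Array medians lay between 6.31 and 6.33 on the log2 scale of RMA. Knockdown clone 1 gave a narrower spread of values than the other arrays (SD over genes 2.00 against 2.05 to 2.07), and its dim genes read higher, by 0.119 on average in the lowest quartile of genes. Luminal epithelial markers, which define the labelled line, were bright: none of the 9 that were measured, KLK3, KRT8, KRT18 and EPCAM among them, fell in the lowest quartile of control means. Of the markers of other cells, 6 of 8 for blood, 5 of 6 for endothelium, 5 of 11 for fibroblasts and smooth muscle and 4 of 6 for basal epithelium lay there, and 0 of them passed the test. The basal list had separate groups in 3 of 6 genes, against 15.4% of all genes, and a median of 0.178. The keratin KRT15 had 0.34 and the laminin chain LAMB3 0.40, both dim genes. Of the 6 genes 4 were higher and 2 lower, DSG3 with -0.05 among the latter. The luminal list had separate groups in 2 of 9 genes, KRT19 with 0.79 and KRT18 with -0.17. The part of these shifts in the marker values was not tested. PTPRC, the pan-leukocyte marker, averaged 2.58 in control and 2.55 in knockdown clones.

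No neuroendocrine marker passed the test of a difference between MBD2 knockdown and control clones. In limma's moderated test, adjusted by Benjamini-Hochberg over all 16704 genes, 0 of the 9 had an adjusted p under 0.05, with values from 0.852 to 0.981. The background gives this count little weight, since 0.0% of all genes passed that threshold. At an unadjusted p under 0.05 there were again 0 of the 9, against 9.39% of all genes, and the groups were separate in 0 of the 9, against 15.4% of all genes. The median log2 difference was 0.069 over the 9 and -0.004 over all genes. The estimates were small, and the 95% confidence intervals of the 9 genes together ran from -0.48 to 0.40. This bounds each gene at most 1.39-fold lower or 1.32-fold higher. The median SE was 0.13 over the 9, larger than the 0.104 over all genes. A 2-fold change on the scale of the array lies outside all of these intervals. For dim features the array reads a smaller change than occurs in the RNA, so the bounds apply to the measured values.

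**Figure D1:**
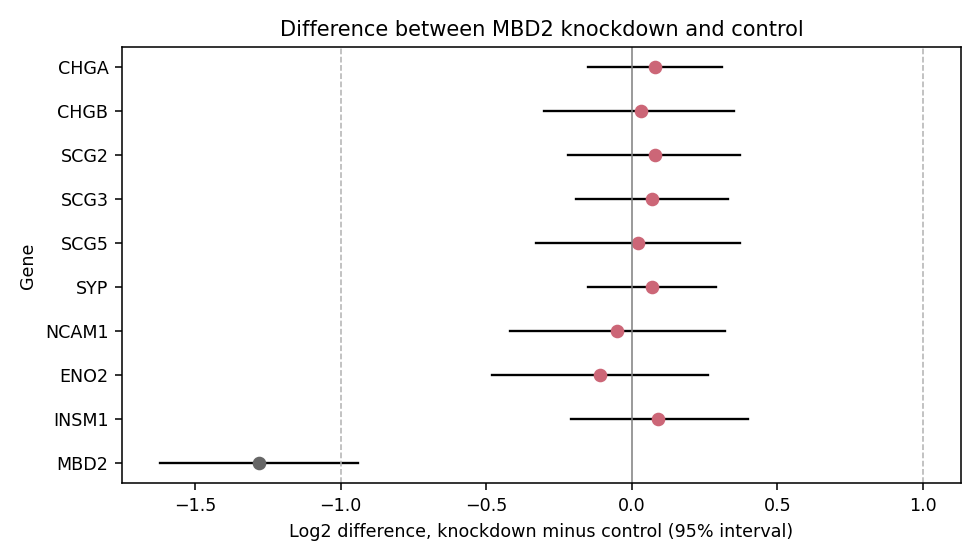
Log2 difference between knockdown and control means (points) with limma's 95% confidence interval (bars), n = 3 clones per group, for the 9 markers and for MBD2. Dashed lines mark a 2-fold change. All 9 marker intervals include 0 and stay between -0.48 and 0.40, while that of MBD2 runs from -1.62 to -0.94.

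Among the granins, CHGA, the marker most used in the clinic, read 4.06, 4.19 and 3.90 in control clones 1 to 3 and 4.22, 4.10 and 4.07 in knockdown clones 1 to 3. The groups overlapped, and all 6 values lay within 0.32 of each other. Its log2 difference was 0.08 with an SE of 0.10 (limma adjusted p = 0.852), the smallest adjusted p of the 9, and the exact permutation test over the 6 arrays, two-sided, gave p = 0.4, where 0.1 is the smallest p that 3 against 3 allows. CHGB, the second granin of chromaffin granules, read 3.86, 3.74 and 3.62 in the controls and 3.70, 3.54 and 4.04 in the knockdown clones. Knockdown clones 2 and 3 held the lowest and the highest CHGB values of all 6, so the knockdown group was wider than the control group (SD 0.26 and 0.12). The mean difference was 0.03, with a 95% interval of -0.30 to 0.35, and its sign turned after repeated quantile normalization and after cyclic loess.

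SCG2, the precursor of secretoneurin, read 2.86, 2.92 and 3.17 in the controls and 3.27, 2.90 and 3.01 in the knockdown clones. Only knockdown clone 1 exceeded every control, and the difference of the means was 0.08 (95% interval -0.22 to 0.37). SCG3, which binds CHGA to cholesterol-rich granule membranes, gave the lowest values of the set, with 2.42, 2.59 and 2.66 in the controls and 2.79, 2.62 and 2.46 in the knockdown clones. Its highest value was again that of knockdown clone 1, and the groups overlapped (difference 0.07, 95% interval -0.19 to 0.33). SCG5, also called 7B2, the chaperone of the prohormone convertase PCSK2, read 4.39, 4.34 and 4.56 in the controls and 4.72, 4.14 and 4.49 in the knockdown clones. Here knockdown clone 1 was the highest of the 6 and knockdown clone 2 the lowest, and the means differed by 0.02 (95% interval -0.33 to 0.37), with a sign that turned after repeated quantile normalization and cyclic loess.

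SYP, or synaptophysin, an integral protein of small synaptic-like vesicles, had the tightest control values of the set, 4.62, 4.50 and 4.57, with 4.72, 4.47 and 4.72 in the knockdown clones. Knockdown clones 1 and 3 stood above every control and knockdown clone 2 below every one. The log2 difference was 0.07 with an SE of 0.10 (limma adjusted p = 0.868). NCAM1, or CD56, a homophilic adhesion molecule, read 4.02, 4.15 and 4.29 in the controls and 4.44, 3.83 and 4.04 in the knockdown clones. As with SCG5, the extremes of NCAM1 were both knockdown clones, clone 1 at the top and clone 2 at the bottom, and the difference of -0.05 had a 95% interval of -0.42 to 0.32. ENO2, the neuronal enolase of glycolysis, was 1 of the 2 markers above the lowest quartile on all arrays, with 5.73, 5.12 and 5.55 in the controls and 5.24, 5.46 and 5.38 in the knockdown clones.

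For ENO2 the controls were the wider group (SD 0.31 against 0.12), and all 3 knockdown values fell between control clone 2, the lowest array, and control clone 1, the highest. Its log2 difference of -0.11 (SE 0.16, limma adjusted p = 0.877) was the largest of the 9 in size. Single controls decided its value: without control clone 1 it was 0.023, with the sign turned, and without control clone 2 it was -0.28 (limma adjusted p = 0.732). INSM1, the transcription factor of the set, was the other marker above the lowest quartile and the highest of the 9 on these arrays, with 6.31, 6.27 and 6.50 in the controls and 6.71, 6.35 and 6.29 in the knockdown clones. Knockdown clone 1 was the highest and the other knockdown clones lay within the control range (difference 0.09, 95% interval -0.21 to 0.40, limma adjusted p = 0.874). Levels of different genes come from different probes and their order is no order of transcript number.

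**Figure D2:**
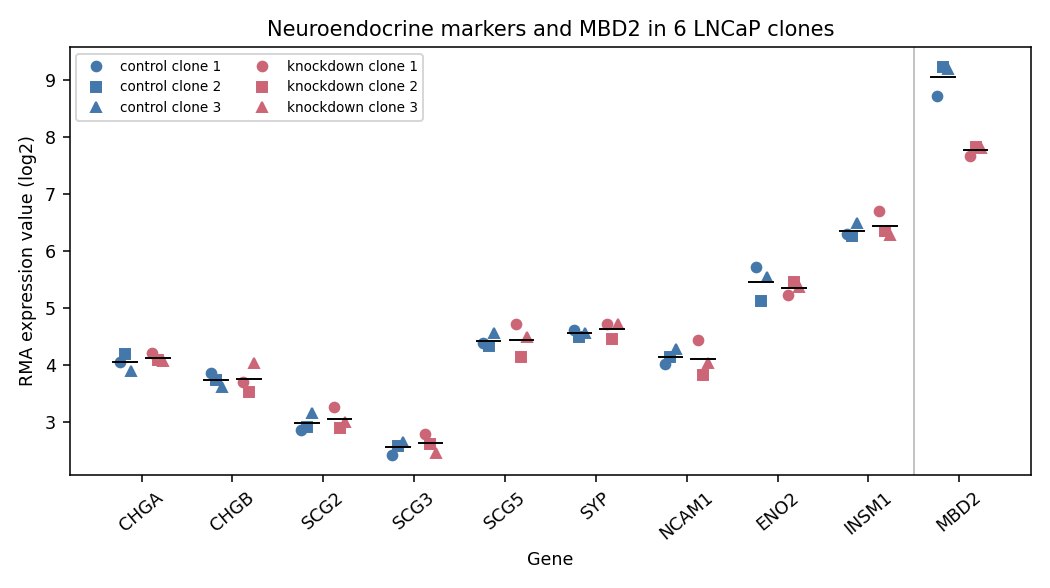
RMA log2 values of the 9 markers and MBD2 in 3 control clones (blue) and 3 MBD2 knockdown clones (red), with symbols for clone number and black lines for group means. The groups overlap in all 9 markers and are separate for MBD2, and all markers but ENO2 and INSM1 read under 4.8 in every clone.

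The other 7 markers, CHGA, CHGB, SCG2, SCG3, SCG5, SYP and NCAM1, lay under the lower quartile of all 6 arrays (4.68 to 4.81). This is a description of brightness and no detection call, since the deposited table gives none. The mean was higher in the knockdown clones for 7 of the 9 genes, all but ENO2 and NCAM1, and for 5 of the 9 after repeated quantile normalization or cyclic loess. Without knockdown clone 1 the count was 3 of 9 with a median of -0.029, and with array weights it was 4 of 9 with a median of -0.017. Among all genes 48.7% had the higher mean in the knockdown clones, and 61.7% in the lowest quartile of control means.

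The variation that these genes did show lay between clones and not between the groups. Knockdown clone 1 stood above every control in 7 of the 9 genes, all but CHGB and ENO2, and held the highest value of the 6 arrays in the same 7. Its mean deviation from the control mean over the 9 genes was 0.168, against 0.119 for the lowest quartile of all genes on that array. In that quartile 52.5% of genes stood above every control in knockdown clone 1, as did 37.3% of all genes. INSM1, which is not dim, deviated most in this clone, by 0.35. After repeated quantile normalization, which gives all arrays the same distribution, the mean deviation in knockdown clone 1 was 0.079, with 5 of the 9 genes above every control. Knockdown clone 2 pointed the other way, with a mean deviation of -0.097, and was under every control in 4 of the 9 genes (CHGB, SYP, NCAM1 and SCG5), against 28.5% of the lowest quartile of genes and 31.2% of all genes. The mean deviation of knockdown clone 3 was 0.022, inside the range of the controls (-0.055 to 0.058). The knockdown clones had the larger SD in 7 of the 9 genes, and in 61.4% of all genes.

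**Figure D3:**
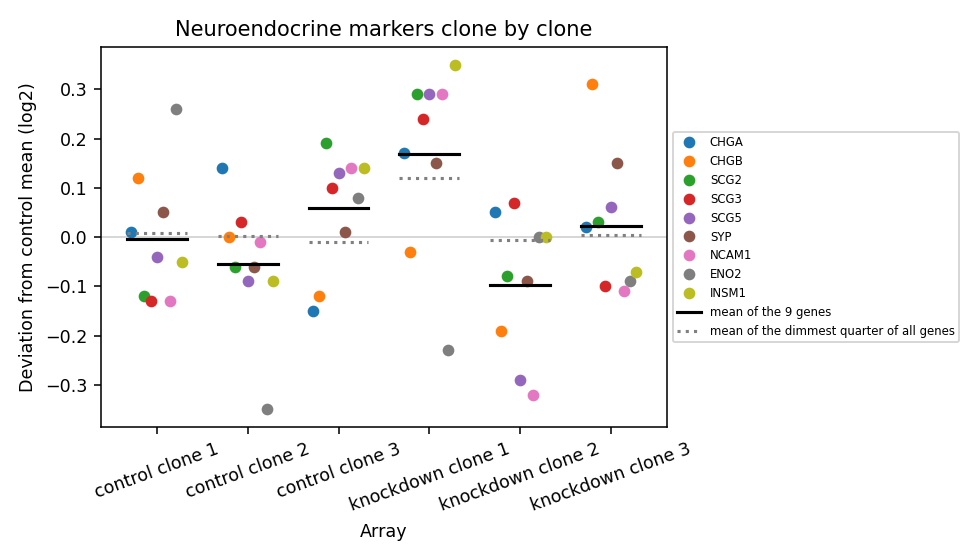
Deviation of each marker from its control mean (log2, points) on each of the 6 arrays, with the mean of the 9 genes (solid line) and the mean of the lowest quartile of all genes by control level (dotted line). Knockdown clone 1 lies highest, with a mean of 0.168, and knockdown clone 2 lowest, with -0.097.

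ENO2 and NCAM1 varied most over the 6 arrays (SD 0.220 and 0.217). By root mean square difference of centred log2 values over the 6 arrays, the genes most like ENO2 were LHPP (0.049), KLF13 (0.054) and STEEP1 (0.063). All 3 were lowest in control clone 2 and highest in control clone 1, as ENO2 was. Most like NCAM1 were ADAMTS18 (0.035), OR4D1 (0.038) and CFB (0.045), each of which was highest in knockdown clone 1 and lowest in knockdown clone 2. With 6 arrays and 16704 genes, close matches of this kind are a description of the arrays.

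Of 8 measured paralogs and granin-like relatives of the markers 2 were higher and 6 lower, with a median of -0.097, and 0 passed. This list is not separate from those below: SYPL1, SYPL2, VGF and PCSK1N are also counted among the granule genes and INSM2 among the regulators. ENO1, the ubiquitous enolase, averaged 12.13 ± 0.10 in control clones and 12.06 ± 0.10 with MBD2 knockdown (SD, n = 3). NCAM2, the second member of the NCAM family, read 8.69, 9.27 and 8.84 in the controls and 9.39, 7.39 and 7.92 in the knockdown clones. Knockdown clone 1 was thus the highest array for NCAM2, while knockdown clones 2 and 3 were below every control, and the mean difference was -0.70 (SE 0.46, limma adjusted p = 0.7). Among the granin-like precursors, VGF differed by 0.05 and PCSK1N, the inhibitor of the convertase PCSK1, by -0.22 (7.78, 7.79 and 7.75 in the controls against 7.34, 7.62 and 7.71 with knockdown). The PCSK1N groups did not overlap, but it did not pass (limma adjusted p = 0.591). SYPL1, the ubiquitous relative of synaptophysin, differed by -0.21, and SYPL2 by 0.04.

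The wider machinery of granule biogenesis, prohormone processing and exocytosis did not pass either, with 0 of 42 measured genes past the threshold, 27 higher and 15 lower, and a median of 0.042. The groups were separate in 8 of the 42 genes, or 19.0%, close to the 15.4% of all genes. The smallest p was that of BAIAP3, a protein of the UNC13 family that acts in dense-core vesicle exocytosis, which read 6.22, 6.11 and 6.19 in the controls and 6.52, 6.55 and 6.63 in the knockdown clones. All knockdown clones were above all controls, with a difference of 0.40 (SE 0.08, limma adjusted p = 0.229). SYT7, a calcium sensor of slow exocytosis, showed the same order, with 7.96, 7.81 and 7.91 against 8.24, 8.44 and 8.68, a difference of 0.56 (SE 0.12, limma adjusted p = 0.272). On the lower side the active-zone protein RIMS1 had -0.70 and the synapsin SYN2 -0.28. CPE, which trims processed prohormones, had 0.22.

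Further genes of that list were picked after their values were seen. PAM, the enzyme that amidates peptide hormones, had 0.48, and PTPRN2, a phosphatase-like protein of granule membranes, had 0.25. Both had separate groups and neither passed. The synaptotagmin SYT4 showed a split between clones that none of the 9 markers showed in size, with 5.29, 5.93 and 7.14 in the controls and 5.46, 8.74 and 9.84 in the knockdown clones. Knockdown clones 2 and 3 were above every control and knockdown clone 1 was inside the control range, so the difference of 1.89 had an SE of 1.04 (limma adjusted p = 0.638).

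Of the transcription factors and regulators linked to neuroendocrine cancers, 27 were measured, 14 were higher and 13 lower (12 and 15 after repeated quantile normalization), the median was 0.009 and 0 passed. HES1, a Notch target that represses neuronal differentiation, read 7.45, 7.41 and 7.20 in the controls and 8.05, 7.66 and 7.69 in the knockdown clones. Every knockdown clone was above every control, with a difference of 0.44 (SE 0.13, limma adjusted p = 0.363). CBX2, a Polycomb protein, had 0.21. AURKA, a mitotic kinase that stabilises N-Myc, had -0.51 with separate groups, and EZH2, the Polycomb methyltransferase, had -0.27. Both are also cell-cycle genes, and the means of all 13 measured mitosis genes were lower with knockdown (median -0.38, for example KIF11 with -0.53 and TTK with -0.48), with 0 past the threshold. In this list 11 of 13 genes had an unadjusted p under 0.05, against 9.39% of all genes, and 10 of 13 had separate groups, against 15.4%. Of these 13 genes 2 passed without knockdown clone 1.

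REST did not separate the groups, with 8.27, 8.36 and 8.40 in the controls and 8.28, 8.33 and 8.41 in the knockdown clones. The ranges coincided and the difference was -0.0034 (SE 0.08, limma adjusted p = 0.994). REST and its cofactors had 15 measured genes, 7 higher and 8 lower, with a median of -0.003 and 0 past the threshold. After repeated quantile normalization 10 of the 15 were higher, with a median of 0.043. HDAC2, a histone deacetylase of both CoREST and NuRD, had -0.24, and USP7, a deubiquitinase that stabilises REST, had -0.11. SMARCA4, a chromatin remodelling ATPase, had 0.17 and the CoREST protein RCOR2 had 0.12. The groups were separate in 4 of the 15 genes (HDAC2, USP7, SMARCA4 and BTRC), or 26.7%, against 15.4% of all genes.

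Neuronal cytoskeleton and related genes had 28 measured members, 16 higher and 12 lower, with a median of 0.055 and 0 past the threshold. MAPT, the microtubule protein tau, read 6.82, 6.33 and 6.54 in the controls and 6.69, 7.47 and 7.46 in the knockdown clones. It was above the controls in knockdown clones 2 and 3 only, as SYT4 was (difference 0.64, SE 0.23, limma adjusted p = 0.438). The microtubule regulator STMN2, a dim gene, had 0.28, and the neurofilament genes NEFL and NEFM had -0.29 and -0.12. TUBB3 was not analysed here.

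Peptide hormones, amine enzymes and their receptors had 32 measured genes, 19 higher and 13 lower, with a median of 0.025 and 0 past the threshold. The somatostatin receptor SSTR3 had 0.24 and the neurotensin receptor NTSR1 0.21, while SSTR2 had -0.08. NPY1R, a receptor for neuropeptide Y and a dim gene, read 4.51, 4.75 and 4.37 in the controls and 4.01, 4.23 and 4.06 in the knockdown clones. These groups did not overlap (difference -0.44, SE 0.12, limma adjusted p = 0.338). It was the only 1 of the 32 genes with separate groups, or 3.12%, against 15.4% of all genes. GCG, the glucagon precursor, named after its values were seen, varied widely within both groups, with 4.17, 7.63 and 4.36 in the controls and 8.64, 6.23 and 6.02 in the knockdown clones. Control clone 2 exceeded knockdown clones 2 and 3, and the difference of 1.58 had an SE of 1.03 (limma adjusted p = 0.697).

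Androgen-driven genes, which are lost in neuroendocrine prostate cancer, were not lower in the knockdown clones as a group: 9 of 12 measured genes had the higher mean (at least as many under each scaling tried), with a median of 0.167 and 0 past the threshold, and 1 gene passed without knockdown clone 1. KLK3, which encodes prostate-specific antigen, read 8.67, 10.12 and 8.48 in the controls and 8.66, 10.30 and 10.44 in the knockdown clones. Control clone 2 was nearly as high as knockdown clones 2 and 3, and knockdown clone 1 was as low as the other controls (difference 0.71, SE 0.57, limma adjusted p = 0.762). NDRG1, also a gene of differentiation and hypoxia, had 0.82 with separate groups, STEAP4 had 1.88 with an SE of 0.92, and HOXB13 and FOXA1 had -0.26 and -0.09. By clone, the mean deviation of the 12 genes was -0.131 in knockdown clone 1, 0.481 in clone 2 and 0.679 in clone 3. The controls ran from -0.164 to 0.201, so only knockdown clones 2 and 3 lay outside their range. Single genes weigh on these means, such as KLK3 and STEAP4, which read 3.13, 6.55 and 7.15 in the knockdown clones (control mean 3.73). The 9 neuroendocrine markers had mean deviations of 0.168, -0.097 and 0.022 in knockdown clones 1 to 3. Whether the clones differ in androgen response was not tested.

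**Figure D4:**
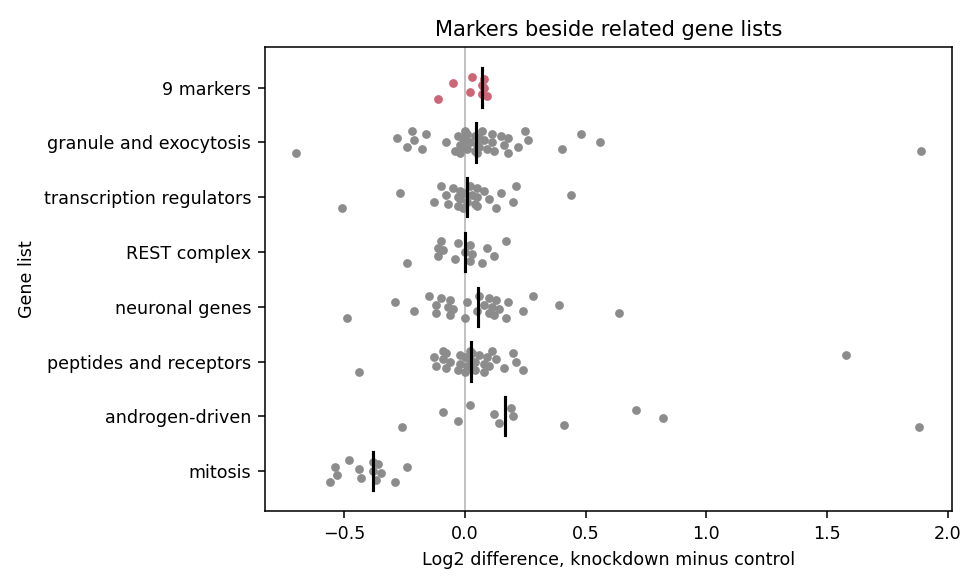
Log2 difference between knockdown and control means for each measured gene (points) of the 9 markers (red) and of 7 related lists (grey), with the median of each list as a black line. The 9 markers lie between -0.11 and 0.09, while single genes of other lists, such as SYT4 at 1.89 and GCG at 1.58, lie far from their list's median.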

How the data were processed

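Cytoplasmic RNA of 6 LNCaP clones was measured on Affymetrix Gene ST arrays, with 1 array for each clone, per the labels' protocols. The deposited values are log2 expression per feature, made by the authors with RMA (background correction, quantile normalization, probe summary) and the R package oligo, per the submitters' processing notes. Their log2 scale was inferred from RMA and the range of values, and the sources used here give no versions, filters or genome build. Of 19712 features 17334 have 1 symbol, 1521 several and 857 none listed. Each of 16704 genes was represented by its feature of highest mean. Knockdown was compared with control by limma 3.58.1 (lmFit, eBayes, no covariates) in R 4.3.3, adjusted by Benjamini-Hochberg over all genes, with a threshold of 0.05. The fit was tested on simulated data. The lowest quartile of genes was taken by control mean. Promoter sequences are those of RefSeq.

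The 9 genes and all gene lists were chosen with earlier results of these data known. The rule named all 9 members, MBD2, up to 2 genes with the smallest p per direction and list, and 12 fixed genes. PCSK1 and PCSK2, which were among these, were not analysed here. Samples were grouped by title. Replicate numbers name separate clones and were not used as pairs in the main fit. Deviations of clones of the same number correlated at -0.025, -0.189 and 0.174, and those of unlike numbers at -0.165 to 0.218. With 3 clones per group these values cannot show whether clones of the same number share a batch. Alternatives covered scaling, filtering, variance model, array weights, a replicate block, feature choice and each array left out.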

Additional observations from a re-analysis of the deposited data

How the results depend on the processing

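Over 16 alternatives, none of the 9 markers passed (smallest adjusted p 0.271, for NCAM1 with array weights), and the count of markers past the threshold was 0 in each. Their log2 differences ranged from -0.28 to 0.18, and 115 of 137 values kept their sign. Part of these values could not turn. The trend and robust variance model, the replicate block, the choice of features and the filter on dim genes leave a marker's difference unchanged. The 22 turned signs thus fell among the remaining alternatives. The cause of the 22 turned signs was not tested. CHGB was -0.0020 after quantile normalization, -0.0043 after cyclic loess and -0.077 with array weights, and -0.11 to 0.14 when each array was left out. SCG5 was -0.017 after quantile normalization and also -0.017 after cyclic loess, -0.17 with array weights, and -0.11 to 0.18 with each array left out. With array weights (0.252 for knockdown clone 1 and 3.43 for knockdown clone 2) SYP was -0.017, SCG2 -0.034 and ENO2 0.026. NCAM1 was 0.037 with knockdown clones 2 and 3 averaged. With each array left out, ENO2 ranged from -0.28 to 0.023, NCAM1 from -0.22 to 0.089, SCG2 from -0.029 to 0.17, SCG3 from -0.015 to 0.15 and INSM1 from -0.038 to 0.17. SCG2, SCG3 and INSM1 turned without knockdown clone 1. Leaving out the dimmest 30% of genes kept only ENO2 and INSM1.

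Over all genes the count past the threshold was 1 after quantile normalization, 1 after cyclic loess, 325 with array weights, 2 at an adjusted p under 0.1, and 0 to 70 with each array left out (70 without knockdown clone 1, 7 without control clone 1). The fit with the replicate number as a block gave 0 genes and 0 markers and changed no call. Signals of 7 of the 9 markers under the lower quartile, and 3 arrays per group, limit what change could be seen. No alternative changed a call among the 15 REST-related genes, and with array weights 7 mitosis, 2 granule, 2 androgen-driven, 1 regulator, 1 neuronal and 1 luminal gene passed, beside 1.95% of all genes. Without knockdown clone 1, 2 mitosis genes and 1 androgen-driven gene passed, beside 0.419% of all genes.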
